A study of Mus musculus with 15 samples.

Results

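Epithelium that had lost Apc was compared directly with epithelium that had lost Brg1, each 4 days after induced deletion in the mouse jejunum. The comparison rests on 7 of the 15 arrays of the study: the 3 arrays whose genotype label is VillinCreERT2+_Apcfl/fl_Brg1+/+ (Apc deficient) and the 4 arrays labelled VillinCreERT2+_Brg1fl/fl (Brg1 deficient), for which the labels state no Apc allele. The 4 arrays of VillinCreERT2+_Apcfl/fl_Brg1fl/fl mice (Brg1-Apc deficient) and the 4 of VillinCreERT2- mice (control) entered the estimate of the spread, and their levels are given beside the comparison. All 4 groups received 4 daily tamoxifen injections of 80 mg/kg. Jejunal epithelium was then scraped from the muscle wall, its total RNA was hybridised to 1-colour bead arrays, and 25695 probes for 16592 named genes were measured. Where a gene had several probes, the brightest on average across the 15 arrays stands for it. Both groups carried the recombinase and had a gene deleted, so a difference between them does not tell which of the deletions moved a gene.

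Apc is a scaffold of the destruction complex, which keeps beta-catenin low; without it beta-catenin accumulates and drives Tcf/Lef target genes, the programme that normally maintains the dividing cells of the intestinal crypt. Brg1, encoded by Smarca4, is an ATPase of the SWI/SNF chromatin remodelling complexes, which open chromatin at promoters and enhancers. VillinCreERT2 is active in the gut epithelium, in crypts, where stem cells and antimicrobial Paneth cells lie, and on villi. Villi carry absorptive enterocytes, mucus-secreting goblet cells, hormone-producing enteroendocrine cells and chemosensory tuft cells. In scraped tissue, fewer cells of a type and less RNA per cell cannot be told apart.

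The values are log2 intensities without a detection call, and the array medians, 5.59 to 5.90, mark the level near background. The 3 Apc deficient arrays correlated with each other at r = 0.966 to 0.970 over all probes and the 4 Brg1 deficient arrays at r = 0.871 to 0.965, while pairs across the groups lay at r = 0.806 to 0.933. Brg1 deficient replicate 4 stood apart: its interquartile range was 1.23 log2 units, whereas that of the remaining 14 arrays was 1.89 to 2.56, and without it the Brg1 deficient arrays correlated at r = 0.951 to 0.965. Counts that its removal moves by more than 1.5 times are given both ways. Slide 1 held replicates 1 and 2 of every group, slide 2 the others, and each genotype kept the same positions on both slides, so slide position and genotype cannot be told apart. Epithelial markers were abundant: the mean log2 value of 12 of them was 11.12 to 11.20 in Apc deficient and 10.80 to 11.46 in Brg1 deficient arrays.

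Smarca4 had log2 values of 8.40, 8.17 and 7.88 in Apc deficient epithelium, against 6.03, 6.18, 6.22 and 6.36 in Brg1 deficient epithelium. The groups were fully separate, and Smarca4 was 3.88-fold higher in Apc deficient epithelium (log2 difference 1.95, SE 0.18, limma adjusted p = 1.43e-06). Within slide 1 the difference was 2.18 and within slide 2 it was 1.59. The Apc probe did not separate the groups, with 7.68, 7.41 and 6.11 in Apc deficient and 7.50, 7.02, 6.06 and 5.38 in Brg1 deficient arrays (difference 0.58, SE 0.47, adjusted p = 0.462). It averaged 6.99 in control arrays, so the probe's level does not mark the Apc deletion, and a second Apc probe differed in the opposite direction without passing the test.

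Of 16592 genes, 3474 (20.9%) differed at an adjusted p under 0.05. In Apc deficient epithelium 2136 genes (12.9%) were higher and 1338 (8.06%) were lower than in Brg1 deficient epithelium, and 4765 of all 25695 probes (18.5%) differed. More than 2-fold differences were seen for 1627 higher and 806 lower genes, and more than 8-fold ones for 85 higher and 51 lower genes. The median difference over all genes was -0.097 on the log2 scale. The shares of 12.9% and 8.06% are the background for the counts of every gene list below. The lower of the group means was at or below 5.90 for 261 of the higher and 347 of the lower genes, for which the size of the difference is uncertain. Without Brg1 deficient replicate 4, 2092 genes were higher and 1451 lower; 1939 of the 2136 (90.8%) and 1141 of the 1338 (85.3%) remained. Within slide 1 alone 1282 genes were higher and 798 lower, and within slide 2 alone, with a single Apc deficient array, 858 were higher and 320 lower. Centring every array on its median moved the median of all probes by 0.13, and higher genes remained the larger share of calls.

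**Figure D1:**
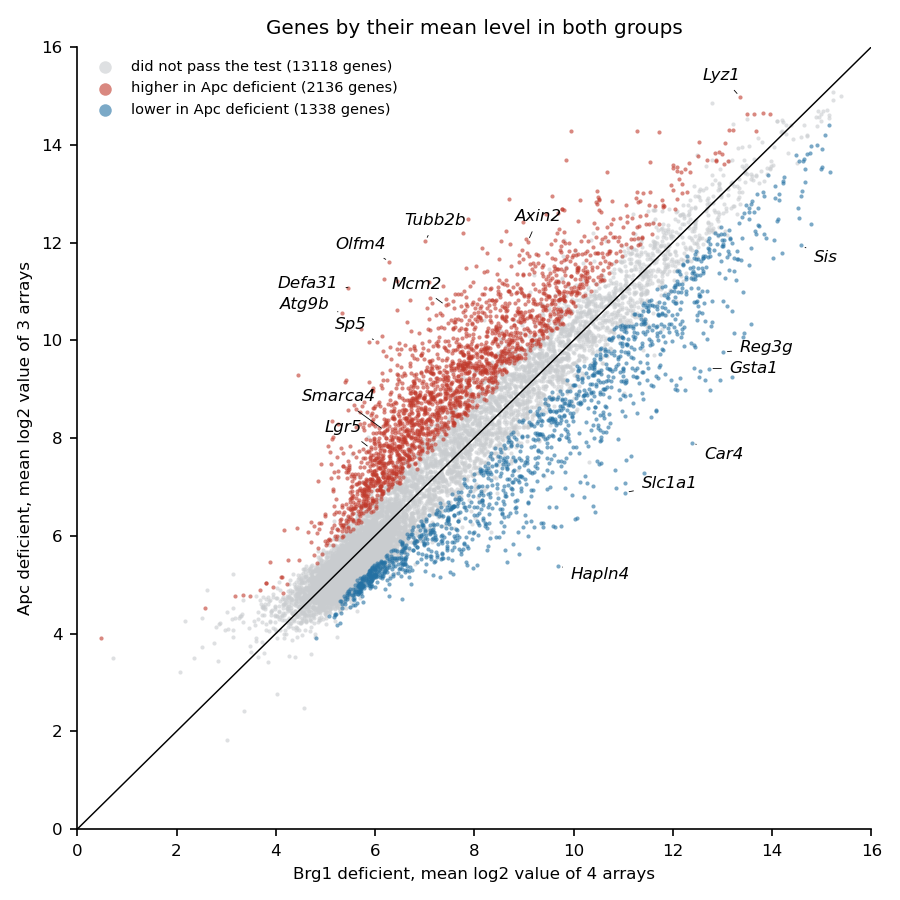
Mean log2 value of each of 16592 genes in Brg1 deficient (horizontal axis, 4 arrays) and Apc deficient (vertical axis, 3 arrays) epithelium; red points passed the test and were higher in Apc deficient epithelium, blue points were lower and grey points did not pass. The higher genes number 2136 and the lower ones 1338, and labelled genes are described in the text.

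The largest rises in Apc deficient over Brg1 deficient epithelium included genes of crypt cells and genes near background in Brg1 deficient epithelium. Olfm4, a secreted glycoprotein of crypt base stem cells, had 12.42, 12.06 and 10.35 in Apc deficient, against 7.57, 6.17, 5.52 and 5.90 in Brg1 deficient arrays. It was higher (log2 difference 5.32, SE 0.49, adjusted p = 1.53e-06); the Brg1-Apc deficient mean was 6.76 and the control mean 9.87. Defa31, an alpha-defensin made by Paneth cells, had 10.37, 10.35 and 12.51 in Apc deficient, against 5.24, 4.61, 5.14 and 6.83 in Brg1 deficient arrays. The Defa31 mean was 8.39 in Brg1-Apc deficient arrays and 5.60, near background, in control arrays. Its difference was 5.62 (SE 0.87, adjusted p = 0.000163), and within slide 2 alone it was 6.52 without passing (adjusted p = 0.0673). The alpha-defensin genes are near-identical copies, so the probe may read several of them.

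Atg9b, a membrane protein of autophagosome formation, was among the most even of these genes. It had 10.46, 10.21 and 11.02 in Apc deficient, against 5.46, 5.07, 5.24 and 5.57 in Brg1 deficient arrays (difference 5.23, SE 0.26, adjusted p = 8.14e-09). Every Brg1 deficient array sat near background. Tubb2b, a beta-tubulin, had 12.14, 12.01 and 11.93 in Apc deficient, against 6.38, 7.14, 6.84 and 7.69 in Brg1 deficient arrays, a difference of 5.01 that its 5 other probes shared in sign. Krt23, a type I keratin, had 12.18, 12.26 and 12.13 in Apc deficient, against 8.47, 7.12, 8.07 and 7.41 in Brg1 deficient arrays. The remaining 5 of the 10 largest were Rgcc, a regulator of the cell cycle (difference 5.08), Emp2, a tetraspan membrane protein (4.84), Igfbp4, which binds insulin-like growth factors (4.78), Ifitm2, an interferon-inducible membrane protein (4.60), and Msx1, a homeobox transcription factor (4.51). The 10 were chosen among genes whose arrays do not overlap, as were the 10 largest falls, so their separation is a matter of choice.

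The largest falls included genes of differentiated enterocytes. Car4, a membrane-bound carbonic anhydrase of the brush border, had 7.48, 7.96 and 8.27 in Apc deficient, against 13.52, 13.50, 12.89 and 9.62 in Brg1 deficient arrays. The low value of replicate 4 belongs to the array that stood apart, and the difference was -4.48 (SE 0.64, adjusted p = 7.57e-05). Slc1a1, a glutamate and aspartate transporter, had 7.02, 7.07 and 6.57 in Apc deficient, against 10.94, 11.55, 10.88 and 10.78 in Brg1 deficient arrays. It was 17.8-fold lower in Apc deficient epithelium (adjusted p = 3.8e-08). Arg2, the mitochondrial arginase, had 7.92, 7.02 and 6.89 in Apc deficient, against 10.97, 11.37, 11.67 and 11.68 in Brg1 deficient arrays (difference -4.15, SE 0.40). Both groups were tight for Slc1a1, whereas Arg2 spread from 6.89 to 7.92 in Apc deficient arrays. Control means were 10.07 for Slc1a1 and 11.50 for Arg2.

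Hapln4, a link protein that binds hyaluronan, had another pattern over the 4 groups. It had 5.14, 5.41 and 5.58 in Apc deficient, against 8.45, 9.47, 10.31 and 10.54 in Brg1 deficient arrays. Its mean was 8.14 in Brg1-Apc deficient and 5.48 in control arrays, so the level was near background in Apc deficient and in control epithelium. Asah2, a neutral ceramidase of the brush border, had 9.98, 7.82 and 9.14 in Apc deficient, against 11.97, 12.87, 13.46 and 12.72 in Brg1 deficient arrays. The remaining 5 of the 10 largest falls were Tmem86b, a lysoplasmalogenase (-3.95), Naaladl1, an intestinal aminopeptidase (-3.95), Aldh4a1 of proline breakdown (-3.94), Dnase1 (-3.88) and Eci3, an enoyl-CoA isomerase (-3.78). Dnase1 came closest to overlap, with 8.63 on the highest Apc deficient and 8.69 on the lowest Brg1 deficient array. Within slide 2 alone, with its single Apc deficient array, 3 of these did not pass: Car4 differed by -2.98 (adjusted p = 0.184), Dnase1 by -3.96 (adjusted p = 0.114) and Naaladl1 by -3.19 (adjusted p = 0.0561).

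**Figure D2:**
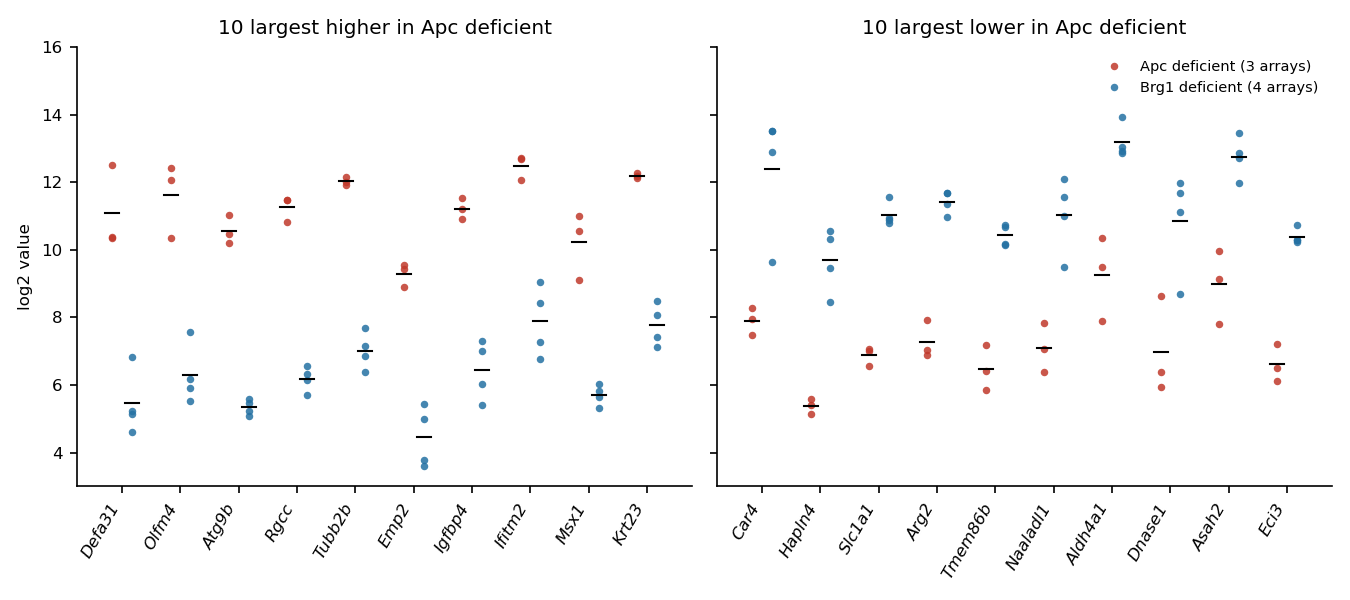
Log2 values on every Apc deficient (red, left of each pair, 3 arrays) and Brg1 deficient (blue, 4 arrays) array for the 10 genes with the largest positive and the 10 with the largest negative difference; black bars are group means. The arrays of the groups are separate for every gene, with the narrowest gap at Dnase1 (8.63 against 8.69).

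Wnt target genes and crypt base stem cell markers were higher in Apc deficient epithelium. Of 30 measured Wnt targets 14 rose and 1 fell, with a median difference of 0.66, and of 22 stem cell markers 15 rose and 0 fell, with a median of 2.29; over all genes 12.9% rose, 8.06% fell and the median was -0.097. Axin2, a feedback inhibitor of the pathway, had 12.04, 11.86 and 12.15 in Apc deficient, against 9.67, 9.23, 9.29 and 8.12 in Brg1 deficient arrays, with no overlap. Axin2 was 7.68-fold higher (log2 difference 2.94, SE 0.35, adjusted p = 1.58e-05), and its mean was 10.98 in Brg1-Apc deficient and 10.02 in control arrays. Sp5, a zinc finger repressor and direct Wnt target, had 9.60, 9.81 and 10.48 in Apc deficient, against 6.56, 6.15, 5.76 and 5.68 in Brg1 deficient arrays. That 15.2-fold difference had the smallest p of the list (adjusted p = 5.16e-08), and the Sp5 means of 9.57 in Brg1-Apc deficient and 7.65 in control arrays lay between them.

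Lgr5, the R-spondin receptor that marks crypt base stem cells, had 7.80, 8.42 and 7.13 in Apc deficient, against 5.84, 5.72, 5.86 and 6.23 in Brg1 deficient arrays. It was 3.67-fold higher (adjusted p = 5e-05), and its means of 5.96 in Brg1-Apc deficient and 6.02 in control arrays were just above the background level of 5.90; within slide 2 alone the difference was 1.09 (adjusted p = 0.138). Cd44, a hyaluronan receptor of crypt cells, had 9.998, 9.72 and 10.001 in Apc deficient, against 7.12, 6.81, 5.92 and 6.55 in Brg1 deficient arrays. Of 5 other Cd44 probes, 1 had the opposite sign and did not pass the test. Other rises past the test were Cdca7 (difference 4.19), Slc12a2, a sodium, potassium and chloride cotransporter (3.84), the water channel Aqp4 (3.74), Tiam1, a Rac exchange factor (3.57), Sox9 (2.63), the cyclin Ccnd1 (2.54), Myc (1.60), Ascl2, the transcription factor of stem cell identity (1.53), and Notum, a secreted Wnt deacylase (1.09). The target that fell was Tgfbi, a matrix protein, with means of 9.19 in Apc deficient, 11.48 in Brg1 deficient, 10.50 in Brg1-Apc deficient and 12.003 in control arrays. Values that did not pass included Rnf43 (0.58), Nkd1 (0.09) and Prom1 (-0.58). The median of the Wnt targets was 0.59 within slide 1 and 0.88 within slide 2, and that of the stem cell markers 2.25 and 2.29.

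Promoter windows, which run from 250 bases before to 50 bases after an annotated start, were searched on both strands for 5 motifs: the Tcf/Lef letters CTTTGAT, the CDX2 letters TTTATNG, the HNF4 letters CAAAGTNCA, the E-box letters CACGTG and the RBPJ letters GTGGGAA. The windows and coordinates are RefSeq's on GRCm38.p6, and 13336 of the 16592 genes had at least 1, giving 16535 windows. The 3 windows below belong to Sp5, Defa31 and Sis, genes of the Wnt target, Paneth and digestion lists whose windows hold a match. Capitals mark 1 motif per window or its reverse complement, Tcf/Lef in Sp5 and Defa31 and CDX2 in Sis. The Sp5 window also holds an RBPJ match and the Defa31 window a CDX2 match, which are left in lower case. Each sequence is given on its gene's strand.
Sp5 (chr2:70474673-70474972, plus strand): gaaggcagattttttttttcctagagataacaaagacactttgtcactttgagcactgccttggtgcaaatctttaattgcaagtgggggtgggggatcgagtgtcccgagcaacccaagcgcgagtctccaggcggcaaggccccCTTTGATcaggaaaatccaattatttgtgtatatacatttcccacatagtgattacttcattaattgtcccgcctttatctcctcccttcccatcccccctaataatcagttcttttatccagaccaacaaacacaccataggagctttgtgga
Defa31 (chr8:21191323-21191622, plus strand): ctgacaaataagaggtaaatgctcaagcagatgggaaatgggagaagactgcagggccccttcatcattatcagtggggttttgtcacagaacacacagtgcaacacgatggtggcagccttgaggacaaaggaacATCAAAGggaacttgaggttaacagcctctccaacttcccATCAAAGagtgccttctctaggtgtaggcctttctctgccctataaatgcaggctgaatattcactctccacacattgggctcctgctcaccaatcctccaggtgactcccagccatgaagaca
Sis (chr3:72967814-72968113, minus strand): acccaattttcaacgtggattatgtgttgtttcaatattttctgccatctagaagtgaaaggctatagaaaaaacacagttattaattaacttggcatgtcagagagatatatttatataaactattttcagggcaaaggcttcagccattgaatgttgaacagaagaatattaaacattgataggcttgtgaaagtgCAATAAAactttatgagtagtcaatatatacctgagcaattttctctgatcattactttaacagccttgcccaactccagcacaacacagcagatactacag
In the Sp5 window the first base of the Tcf/Lef match lies at -104 from the annotated start. The Defa31 window holds 2 Tcf/Lef matches, whose first bases lie at -114 and -74 from the start. In the Sis window the CDX2 match lies at -52. Shares count windows and not genes, and a gene can have more than 1 window. The 27 windows of the Wnt targets belonged to 19 genes, the 31 of the lipid absorption list to 26 and the 19 of the digestion list to 15. The Tcf/Lef letters were found in 5 of 27 windows of the measured Wnt targets (18.5%), against 3.21% of all windows. The RBPJ letters were found in as many of the Wnt target windows, 5 of 27 (18.5%), against 6.07% of all windows, so that share was not particular to the Tcf/Lef letters. The Tcf/Lef letters stood in 2.36% of the windows of the 2136 higher genes and in 2.09% of those of the 1338 lower genes. The CDX2 letters stood in 5 of 19 windows of the digestion list (26.3%) and 9 of 31 of the lipid absorption list (29%). Over all windows their share was 9.07%. In the windows of the nutrient transporters they stood in 10.5%, and in those of the Wnt targets in 14.8%. The HNF4 letters stood in 1 of 19 digestion windows (5.26%), 3 of 31 lipid absorption windows (9.68%) and 0 of 38 nutrient transporter windows. Over all windows the HNF4 share was 1.38%. Over all lower genes the CDX2 share was 7.89% and over all higher genes 7.52%. These are letter matches in short windows and not binding sites.

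Ligands, receptors and transducers of the Wnt pathway differed in fewer members. Of 33 measured, 5 rose and 0 fell, with a median of -0.014, and the share that rose was near the 12.9% over all genes. The probes of 16 of the 33 were near background in both groups, which limits the count and the median. Tle1, a corepressor of Tcf factors, had 10.28, 9.79 and 10.26 in Apc deficient, against 8.55, 8.49, 8.70 and 8.62 in Brg1 deficient arrays; it was 2.86-fold higher (adjusted p = 0.000179), and the control mean of 10.17 was close to the Apc deficient mean of 10.11. Wls, which escorts Wnt ligands to the surface, the receptor Fzd6 and the transducer Dvl1 rose by 0.91, 0.85 and 0.78. Wnt3, a ligand made by Paneth cells, passed at the edge, with 5.93, 6.70 and 5.86 in Apc deficient, against 5.25, 5.38, 5.30 and 5.53 in Brg1 deficient arrays (difference 0.80, adjusted p = 0.0498). With the replicate number as a block Wnt3 did not pass (0.75, adjusted p = 0.106). All 4 Brg1 deficient values were near background, and the Apc deficient values of 5.93 and 5.86 lay close to the background level of 5.90. Ctnnb1, which encodes beta-catenin itself, had means of 10.7 in Apc deficient and 10.5 in Brg1 deficient arrays and did not pass.

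Notch pathway genes rose in 5 of 28 and fell in 1, with a median of 0.10, so 6 of 28 passed, a share near the 20.9% of all genes. The probes of 13 of the 28 were near background in both groups. Hes6, a transcription factor of secretory precursors, had 11.04, 11.03 and 10.93 in Apc deficient, against 8.79, 8.63, 8.50 and 8.89 in Brg1 deficient arrays, a tight 4.91-fold difference (adjusted p = 9.48e-07). The Notch effector Hes1 (1.77), the feedback regulator Nrarp (1.81), the ubiquitin ligase Dtx4 (1.60) and the protease subunit Psen2 (0.90) rose too, and Dtx1, another ubiquitin ligase, fell (-1.43). Without Brg1 deficient replicate 4, 3 genes of the list fell. Hes1 averaged 8.94 in Apc deficient and 7.17 in Brg1 deficient arrays, and 7.24 in Brg1-Apc deficient and 8.57 in control arrays. Notch1 itself differed by 0.77 (adjusted p = 0.0637), and passed in 5 alternatives, among them median centring (0.90, adjusted p = 0.0303) and without Brg1 deficient replicate 4 (0.85, adjusted p = 0.049).

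Among 30 BMP, TGF beta and hedgehog genes 4 rose and 3 fell, with a median of -0.14, and these 7 are also near the 20.9% that passed over all genes. The probes of 12 of the 30 were near background in both groups. Bmp7, a secreted ligand, had 8.67, 8.77 and 8.43 in Apc deficient, against 6.15, 5.85, 5.58 and 6.25 in Brg1 deficient arrays (difference 2.66, SE 0.25, adjusted p = 1.76e-06). Both TGF beta receptors were higher, Tgfbr2 by 2.90 and Tgfbr1 by 1.92, as was the transducer Smad5 by 1.19. Ihh, the hedgehog ligand of villus epithelium, fell (-1.82), as did the inhibitory Smad6 (-1.65) and the common mediator Smad4 (-0.92). Bmp4, a ligand made mainly by mesenchyme, had 5.49, 5.97 and 6.21 in Apc deficient and 5.95, 7.86, 5.89 and 7.97 in Brg1 deficient arrays, which overlapped (difference -1.03, adjusted p = 0.153).

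Some SWI/SNF subunits other than Brg1 differed too. Of 21 measured, 6 rose and 1 fell, with a median of 0.14, against 12.9% and 8.06% over all genes. Bcl7a had 8.81, 8.87 and 8.41 in Apc deficient, against 6.98, 6.75, 5.47 and 6.28 in Brg1 deficient arrays (difference 2.33, SE 0.27, adjusted p = 1.41e-05). The core subunits Smarcc1, Smarce1 and Smarcb1 rose by 2.12, 1.71 and 1.16, Ss18 by 1.74 and the actin-related Actl6a by 0.86. Dpf1, a subunit known from neurons, fell by 0.98 with both means near background. Smarca2, the ATPase that can take Brg1's place, had 9.42, 9.22 and 8.90 in Apc deficient and 8.11, 8.88, 8.38 and 9.01 in Brg1 deficient arrays; it overlapped and did not pass (0.59, adjusted p = 0.103), and without Brg1 deficient replicate 4 it did (0.73, adjusted p = 0.0378). Control arrays averaged 9.23 for Smarca2.

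Transcription factors of the intestine split in direction. Of 24 measured, 4 rose and 7 fell, with a median of -0.47. Foxa1 (2.34) and Foxa3 (1.71), forkhead factors, the nuclear receptor Pparg (1.92) and the homeobox factor Cdx1 (1.35) were higher in Apc deficient epithelium. Nr1h4, the bile acid receptor, had 9.93, 10.42 and 10.64 in Apc deficient, against 12.32, 12.05, 11.996 and 12.25 in Brg1 deficient arrays (difference -1.82, SE 0.21, adjusted p = 1.2e-05). Its means of 11.86 in Brg1-Apc deficient and 10.65 in control arrays put the Brg1-Apc deficient level nearer to the Brg1 deficient one. Hnf4a, a master factor of enterocyte genes, fell by 1.17, with means of 11.25 in Apc deficient, 12.41 in Brg1 deficient, 12.04 in Brg1-Apc deficient and 11.51 in control arrays. Hnf4g (-1.07), Nr5a2 (-1.12), Gata4 (-0.97), Gata5 (-0.91) and Creb3l3 (-1.87) also fell. Cdx2 had 11.45, 11.48 and 12.06 in Apc deficient and 12.25, 11.97, 12.79 and 11.61 in Brg1 deficient arrays, which overlapped (adjusted p = 0.276).

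Of 25 transcription factors known from development 6 rose and 0 fell, whereas over all genes 12.9% rose and 8.06% fell. The median was -0.091, and 15 of the 25 were near background in both groups. Msx1 had 10.57, 9.11 and 10.998 in Apc deficient, against 5.33, 5.66, 6.04 and 5.83 in Brg1 deficient arrays, and its control mean was 5.75. Etv4, an ETS factor, had 9.19, 9.48 and 8.89 in Apc deficient, against 5.72, 5.20, 5.27 and 5.48 in Brg1 deficient arrays (13.6-fold, adjusted p = 1.28e-07). All 4 Brg1 deficient arrays sat near background for Etv4, and for Msx1 their mean did. Foxq1 (3.48), Sox21 (1.90), Hoxa5 (1.37) and Etv5 (0.84) were the other members that rose. Without Brg1 deficient replicate 4, 1 member of the list fell.

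Genes of cell division were higher in Apc deficient epithelium, and none of them fell. Of 43 DNA replication and G1/S genes 34 rose and 0 fell, with a median of 2.11, and of 37 G2/M and mitosis genes 24 rose and 0 fell, with a median of 1.86. Mcm2, a subunit of the replicative helicase, had 10.60, 10.75 and 10.79 in Apc deficient, against 8.21, 7.43, 6.88 and 7.18 in Brg1 deficient arrays. Mcm2 was 9.77-fold higher (adjusted p = 3.17e-07), and its mean was 9.74 in Brg1-Apc deficient and 8.54 in control arrays. Mcm6 differed by 4.11, the polymerase processivity factor Pcna by 0.60 and the S phase cyclin Ccne1 by 1.21. Top2a, the topoisomerase of dividing cells, had 10.96, 11.21 and 9.83 in Apc deficient, against 9.20, 7.51, 6.24 and 5.23 in Brg1 deficient arrays. The Brg1 deficient arrays spread widely for Top2a, and it was 12.3-fold higher in Apc deficient epithelium (adjusted p = 0.000539). Mybl2, a transcription factor of G2/M genes, had 9.44, 10.07 and 9.92 in Apc deficient, against 7.21, 6.33, 5.997 and 6.54 in Brg1 deficient arrays (9.81-fold). Pcna was low, with means of 6.15 in Apc deficient and 5.55 in Brg1 deficient arrays. The mitotic kinase Cdk1 rose by 3.29 and Aurka by 1.85, while Plk1 differed by 2.22 without passing. The probes of 11 of the 37 G2/M members were near background in both groups, among them Ccnb2 (-0.88) and Hmmr, which did not pass.

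Ribosome biogenesis and nucleotide synthesis followed the same direction. Of 44 ribosome biogenesis genes 33 rose and 0 fell (median 1.95), and of 23 nucleotide synthesis genes 19 rose and 0 fell (median 1.76). Ncl, the nucleolar protein nucleolin, had 10.55, 10.68 and 10.75 in Apc deficient, against 8.64, 8.16, 7.33 and 8.35 in Brg1 deficient arrays (5.81-fold, adjusted p = 5.03e-06). Utp4, of the small subunit processome, had 10.81, 11.10 and 11.13 in Apc deficient, against 8.97, 8.62, 8.08 and 9.04 in Brg1 deficient arrays. Neither gene came near overlap. Npm1, an abundant nucleolar chaperone, rose by 3.01 and the methyltransferase fibrillarin, Fbl, by 2.92. Ctps, the CTP synthase, had 11.34, 11.54 and 11.53 in Apc deficient, against 8.65, 8.12, 6.83 and 7.69 in Brg1 deficient arrays (12.5-fold, adjusted p = 6.57e-07). Ppat, the first enzyme of purine synthesis, had 7.92, 8.62 and 7.51 in Apc deficient, against 5.22, 5.34, 5.35 and 4.67 in Brg1 deficient arrays, which were near background. The E-box letters CACGTG stood in 8 of 45 ribosome biogenesis windows (17.8%) and 5 of 28 nucleotide synthesis windows (17.9%), against 8.32% of all windows. Their share was 11% over the higher genes and 10.2% over the lower genes. It was 14.8% for the Wnt targets, 12.9% for lipid absorption, 10.5% for digestion and for nutrient transporters, and 5.56% for stem cell markers. A share above that of all windows was therefore not particular to the ribosome and nucleotide lists. Within slide 1 the medians of the replication, mitosis, ribosome and nucleotide lists were 1.79, 1.39, 1.65 and 1.69, and within slide 2 they were 2.55, 1.97, 2.29 and 2.22.

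Polyamine, arginine and proline genes were divided, with 5 of 21 higher and 2 lower (median -0.016), against 12.9% and 8.06% over all genes. Ass1, which makes argininosuccinate, had 9.36, 9.92 and 9.78 in Apc deficient, against 5.92, 6.11, 5.82 and 7.02 in Brg1 deficient arrays (11.1-fold higher, adjusted p = 4.9e-07). Odc1, the first enzyme of polyamine synthesis and a Myc target, had 12.06, 12.56 and 12.52 in Apc deficient, against 11.42, 11.11, 11.39 and 11.96 in Brg1 deficient arrays (difference 0.91, adjusted p = 0.00726). Spermidine synthase, Srm, rose by 2.54. Arg2 fell, as given above, and so did Gamt of creatine synthesis, by 2.38. The count of lower members was 4 with the replicate number as a block and 4 without Brg1 deficient replicate 4.

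CDK inhibitor and p53 target genes had no common direction, with 5 of 30 higher and 5 lower (median 0.096). Over all genes 12.9% were higher and 8.06% lower. Cdkn2b, an inhibitor of the G1 kinases, had 8.24, 8.34 and 8.71 in Apc deficient, against 11.68, 11.39, 11.95 and 11.24 in Brg1 deficient arrays. It was 8.78-fold lower in Apc deficient epithelium (adjusted p = 3.5e-08), and its control mean was 11.06. The death receptor Fas (-2.42) and the stress sensor Sesn1 (-1.73) fell, while the repair genes Ddb2 and Xpc rose by 1.81 and 1.07. Cdkn1a, which encodes p21, had 11.85, 11.02 and 11.39 in Apc deficient and 12.06, 12.22, 12.22 and 11.61 in Brg1 deficient arrays. The groups overlapped and it did not pass (difference -0.61, adjusted p = 0.0745); with the replicate number as a block it did (-0.69, adjusted p = 0.0446), and likewise without Brg1 deficient replicate 4 (adjusted p = 0.0243).

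**Figure D3:**
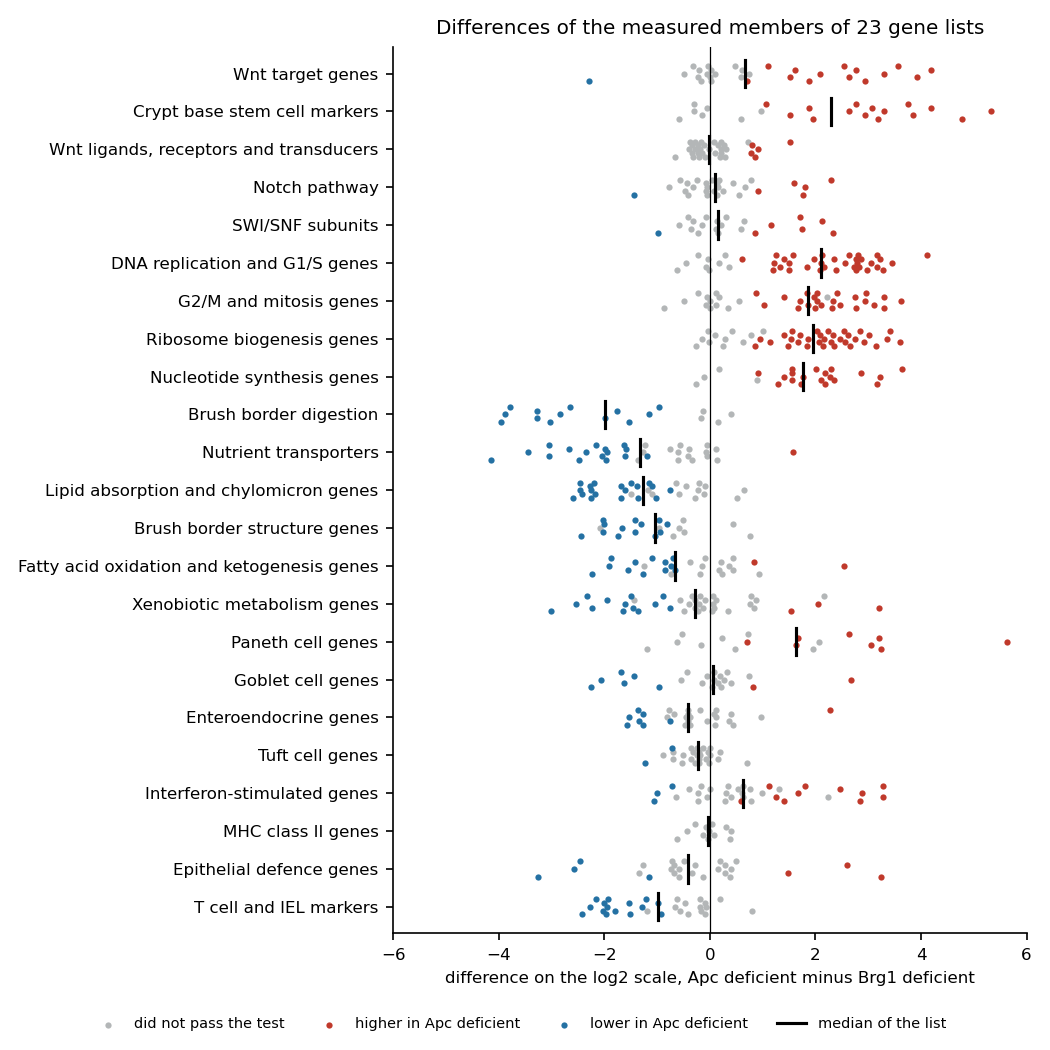
Difference on the log2 scale, Apc deficient minus Brg1 deficient, of every measured member of 23 gene lists (IEL, intraepithelial lymphocyte); red members passed the test as higher, blue ones as lower, and black bars are list medians. The division, ribosome and nucleotide lists have medians of 1.76 to 2.11 and the digestion, transport, lipid and brush border lists medians of -1.99 to -1.03.

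Genes of absorptive enterocytes were lower in Apc deficient epithelium. Of 17 brush border digestion genes 13 fell and 0 rose (median -1.99), of 32 nutrient transporters 16 fell and 1 rose (-1.32), of 32 lipid absorption and chylomicron genes 19 fell and 0 rose (-1.27) and of 21 brush border structure genes 13 fell and 0 rose (-1.03). Sis, sucrase-isomaltase, had 12.68, 10.88 and 12.26 in Apc deficient, against 14.66, 14.88, 14.75 and 14.06 in Brg1 deficient arrays. That is 6.28-fold lower (adjusted p = 0.00021), and its mean was 14.003 in Brg1-Apc deficient and 14.89 in control arrays. The dipeptidases and peptidases Dpep1 (-3.28), Ace (-3.28), Mme (-2.84) and Dpp4 (-1.99) fell, as did Enpp7, the alkaline sphingomyelinase (-3.02). Trehalase, Treh, with means of 8.1 in Apc deficient and 8.2 in Brg1 deficient arrays, did not pass.

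Slc5a1, the sodium-coupled glucose transporter, had 10.80, 9.80 and 10.41 in Apc deficient, against 11.89, 12.53, 12.66 and 10.80 in Brg1 deficient arrays. The nearest arrays of the groups nearly met, and the difference was -1.64 (SE 0.41, adjusted p = 0.00883); without Apc deficient replicate 2 it was -1.37 and did not pass (adjusted p = 0.0668). Among amino acid transporters Slc36a1 (-3.06), Slc7a8 (-3.05) and Slc7a9 (-2.66) fell, and so did the anion exchanger Slc26a6 (-3.45). The transporter that rose was Slc6a6, which takes up taurine (1.57). Slc2a2, the basolateral glucose transporter, differed by -1.27 and did not pass. Dgat1, which makes triglyceride, had 9.56, 8.57 and 9.25 in Apc deficient, against 11.004, 11.36, 11.61 and 11.27 in Brg1 deficient arrays (4.55-fold lower, adjusted p = 6.07e-06). The sterol transporters Abcg5 (-2.59), Abcg8 (-2.46) and Npc1l1 (-2.26) fell, as did Mogat2 of triglyceride synthesis (-2.42) and the apolipoproteins Apoc3 (-1.69), Apoa4 (-1.02) and Apoa1 (-0.75). Mttp, which loads lipid onto chylomicrons, had 9.93, 9.15 and 9.33 in Apc deficient and 11.23, 11.81, 11.31 and 9.07 in Brg1 deficient arrays; replicate 4 lay below all Apc deficient arrays, and the call was at the edge (-1.39, adjusted p = 0.0483).

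Vil1, which encodes the microvillus protein villin and lends its promoter to the recombinase, had 12.48, 11.75 and 10.74 in Apc deficient, against 13.39, 13.10, 13.14 and 13.63 in Brg1 deficient arrays. It was 3.16-fold lower (adjusted p = 0.00584), with means of 11.87 in Brg1-Apc deficient and 13.23 in control arrays; within slide 1 it did not pass (-1.13, adjusted p = 0.0672). Ush1c, which anchors the links between microvilli, had 11.48, 10.42 and 11.06 in Apc deficient, against 13.03, 12.97, 13.80 and 13.89 in Brg1 deficient arrays (5.41-fold lower, adjusted p = 1.01e-05). The link proteins Cdhr2 (-2.03) and Cdhr5 (-1.41) fell. Of 19 genes of the villus top 6 fell and 1 rose, with a median of -0.61. Creb3l3, a transcription factor of lipid genes, had 9.69, 8.63 and 9.26 in Apc deficient, against 10.81, 11.14, 11.27 and 11.03 in Brg1 deficient arrays, while Ada overlapped, with 12.14, 10.80 and 9.60 in Apc deficient and 11.83, 11.07, 12.39 and 10.03 in Brg1 deficient arrays (adjusted p = 0.719). Within slide 1 the medians of the digestion, transporter, lipid and structure lists were -2.08, -1.58, -1.11 and -1.13, and within slide 2 they were -2.09, -1.32, -1.40 and -1.10.

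Metabolic genes of enterocytes fell in part. Of 15 bile acid genes 5 fell and 0 rose (median -0.55). Slc51b, a subunit of the basolateral bile acid exporter, had 10.57, 9.80 and 10.63 in Apc deficient, against 13.89, 13.66, 14.07 and 12.65 in Brg1 deficient arrays (9.43-fold lower, adjusted p = 1.11e-06), and its partner Slc51a fell by 2.35. The ileal uptake transporter Slc10a2 was near background in both groups and did not pass. Of 39 xenobiotic metabolism genes 13 fell and 3 rose (median -0.28), and with the replicate number as a block 5 rose. Cyp2s1 had 8.11, 7.54 and 8.10 in Apc deficient, against 10.39, 10.25, 9.83 and 10.53 in Brg1 deficient arrays (difference -2.33, adjusted p = 8.86e-06), and Fmo5 (-3.005) and Cyp4b1 (-2.54) fell. Cyp2c55 rose by 3.21. Cyp3a11 was uneven, with 10.71, 7.17 and 6.19 in Apc deficient and 5.40, 5.83, 6.66 and 5.57 in Brg1 deficient arrays; its control mean was 9.68, it did not pass (2.16, adjusted p = 0.0858), and with the replicate number as a block it did (2.38, adjusted p = 0.0371).

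Glutathione and NRF2 target genes went both ways, 4 of 29 higher and 9 lower (median -0.29). Gsta1, a glutathione transferase, had 9.25, 9.55 and 9.46 in Apc deficient, against 12.32, 12.56, 12.81 and 13.22 in Brg1 deficient arrays (9.88-fold lower, adjusted p = 7.64e-07); the means of 11.89 in Brg1-Apc deficient and 11.29 in control arrays lay between. Nqo1, a quinone reductase, had 7.75, 8.54 and 7.40 in Apc deficient, against 6.18, 6.40, 6.16 and 6.11 in Brg1 deficient arrays (3.22-fold higher, adjusted p = 0.000233; a second probe had the opposite sign and did not pass), with means of 5.82 in Brg1-Apc deficient and 8.20 in control arrays. Gsta3 and the cystine transporter Slc7a11 rose by 2.62 and 2.33. Of 27 fatty acid oxidation genes 12 fell and 2 rose (median -0.67). Acot1, an acyl-CoA thioesterase, was the larger rise, with 11.02, 11.09 and 10.24 in Apc deficient, against 8.93, 7.95, 8.03 and 8.05 in Brg1 deficient arrays. Acot1 was 5.84-fold higher (adjusted p = 5.96e-06). Crat, the carnitine acetyltransferase, fell (-2.22), as did the carnitine carrier Slc25a20 (-1.87) and the coactivator Ppargc1a (-1.42). Cpt1a was near background in both groups.

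Khk, the fructose kinase, had 10.15, 7.12 and 9.73 in Apc deficient, against 11.40, 11.73, 12.38 and 12.63 in Brg1 deficient arrays (8.19-fold lower, adjusted p = 0.000382). It was 1 of 2 falls among 11 gluconeogenesis and fructose genes, of which 1 rose. Among 18 glycolysis genes 2 rose and 3 fell. For both lists the shares over all genes were 12.9% higher and 8.06% lower. With the replicate number as a block 1 glycolysis gene rose. Slc2a1, the general glucose transporter, had 9.71, 10.37 and 10.25 in Apc deficient, against 8.78, 8.98, 9.07 and 8.53 in Brg1 deficient arrays (2.41-fold higher, adjusted p = 0.000491), and the glycolytic enzymes Ldha (-0.93), Tpi1 (-0.90) and Aldoa (-0.68) fell. Iron genes rose in 5 of 16 and fell in 1. Steap2, a metalloreductase, had 7.98, 7.93 and 8.02 in Apc deficient, against 6.49, 6.47, 5.55 and 5.39 in Brg1 deficient arrays (4.01-fold higher, adjusted p = 3.52e-05). The transferrin receptor Tfrc, the exporter Slc40a1, the iron sensor Ireb2 and the reductase Cybrd1 rose by 2.74, 2.21, 1.95 and 1.89. Slc11a2, which imports iron from the lumen, fell by 0.80 (adjusted p = 0.0309), and centring the arrays on their medians ended that call (-0.67, adjusted p = 0.0922). Of 18 cholesterol genes 2 rose, near the 12.9% over all genes, and 0 fell, and 1 fell without Brg1 deficient replicate 4. The rises were Sqle (2.02) and the regulator Srebf2. Srebf2 had 10.08, 9.84 and 9.97 in Apc deficient, against 8.84, 8.78, 9.05 and 8.23 in Brg1 deficient arrays (adjusted p = 0.0153; 0.0645 after quantile normalization). Hmgcs1 overlapped between the groups (13.57 ± 0.39 SD, n = 3, in Apc deficient and 13.39 ± 0.30 SD, n = 4, in Brg1 deficient arrays).

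The secretory lineages did not move together. Paneth cell genes rose in 8 of 17 and fell in 0, with a median of 1.63. Lyz1, the Paneth cell lysozyme, had 15.08, 14.66 and 15.21 in Apc deficient, against 14.62, 13.94, 11.93 and 12.91 in Brg1 deficient arrays. Groups were just separate (difference 1.63, SE 0.52, adjusted p = 0.0354), and with the replicate number as a block it did not pass (1.67, adjusted p = 0.0587), nor without Brg1 deficient replicate 4 (1.49, adjusted p = 0.0647). Habp2, a serine protease on the Paneth list, had 9.55, 9.36 and 9.56 in Apc deficient, against 7.07, 6.83, 5.45 and 6.41 in Brg1 deficient arrays (8.30-fold higher, adjusted p = 4.91e-06). The ribonuclease Ang4 and the lectin Itln1 rose by 3.25 and 3.20. Defa22, another alpha-defensin, differed by -1.19 and did not pass. The list's median was 0.56 within slide 1 and 2.80 within slide 2.

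Goblet cell genes fell in 6 of 22 and rose in 2, with a median of 0.059, against 8.06% and 12.9% over all genes. The list was split, with a positive difference in 12 of the 22 members and a highest one of 2.68. Tff3, the trefoil peptide of mucus, had 10.97, 10.12 and 11.24 in Apc deficient, against 12.25, 11.69, 12.88 and 13.04 in Brg1 deficient arrays (3.23-fold lower, adjusted p = 0.000746). Bcas1 had 8.91, 8.12 and 8.56 in Apc deficient, against 10.86, 10.18, 10.56 and 10.75 in Brg1 deficient arrays (4.17-fold lower, adjusted p = 1.23e-05). The secreted Clca1 (-2.26) and the peptide precursor Guca2a (-1.45) fell too. These named falls do not describe the goblet list as a whole, in which 2 members rose. The lineage factor Spdef averaged 8.0 in Apc deficient and 7.8 in Brg1 deficient arrays and did not pass. Enteroendocrine genes fell in 7 of 28 and rose in 1, with a median of -0.41, against 8.06% and 12.9% over all genes. Chga, a granule protein, had 7.52, 7.48 and 6.86 in Apc deficient, against 8.74, 8.54, 8.54 and 8.37 in Brg1 deficient arrays (2.40-fold lower, adjusted p = 0.000267). The hormones Pyy (-1.58), Cck (-1.53), Gip (-1.37), Sct (-1.34) and Sst (-1.27) fell. The member that rose was Neurog3, the factor that starts the endocrine fate, with means of 9.04 in Apc deficient, 6.76 in Brg1 deficient, 8.49 in Brg1-Apc deficient and 6.57 in control arrays (difference 2.27, adjusted p = 0.000342). Of 26 tuft cell genes 2 fell, near the 8.06% over all genes, and 0 rose, against 12.9% (median -0.22). With the replicate number as a block, and without Brg1 deficient replicate 4, 1 tuft cell gene rose. Plcg2, a signalling lipase that lymphocytes express as well, had 8.49, 8.36 and 8.33 in Apc deficient, against 8.93, 9.29, 9.88 and 10.42 in Brg1 deficient arrays (adjusted p = 0.00838). Dclk1, the usual tuft marker, was near background in both groups, as were 14 of the 26 members.

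**Figure D4:**
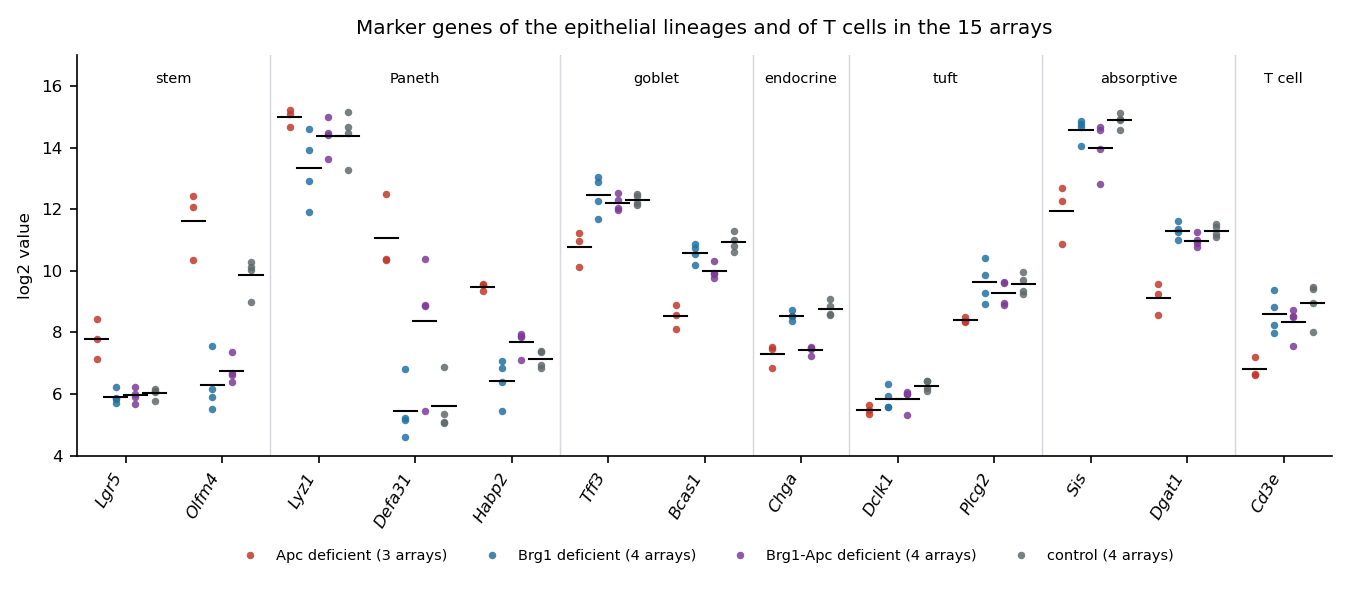
Log2 values of marker genes on every array of the Apc deficient (red, 3), Brg1 deficient (blue, 4), Brg1-Apc deficient (purple, 4) and control (grey, 4) groups; black bars are group means. The Lgr5 points of Apc deficient epithelium lie above the Brg1 deficient ones (7.13 to 8.42, against 5.72 to 6.23). The Sis points of Apc deficient epithelium lie below the Brg1 deficient ones (10.88 to 12.68, against 14.06 to 14.88). Tff3 and Bcas1 fell, whereas 12 of the 22 measured goblet cell genes had a positive difference.

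Interferon-stimulated genes rose in 11 of 34 and fell in 3 (median 0.62), a count that rested in part on Brg1 deficient replicate 4: without it 6 rose and 3 fell (median 0.30). With the replicate number as a block 8 rose. Gbp3, a guanylate-binding protein, had 9.73, 11.06 and 9.66 in Apc deficient, against 8.51, 7.21, 6.21 and 5.58 in Brg1 deficient arrays (9.65-fold higher, adjusted p = 0.000181). Isg15 had 12.06, 12.69 and 11.42 in Apc deficient and 11.996, 9.31, 11.38 and 6.57 in Brg1 deficient arrays, so its Brg1 deficient arrays spread over more than the difference (2.24, adjusted p = 0.146). Irf1, an interferon regulator, fell by 1.06. Of 12 MHC class II genes 0 passed limma's test and 0 had an unadjusted p under 0.05, with a median of -0.027; H2-DMa, a chaperone of peptide loading, differed most (-0.63, adjusted p = 0.201) and passed without Brg1 deficient replicate 2 (-0.90, adjusted p = 0.0414). Ciita, the class II transactivator, had 8.23, 7.75 and 8.07 in Apc deficient and 7.67, 7.21, 7.90 and 8.05 in Brg1 deficient arrays, both groups under the control mean of 9.53.

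Epithelial defence genes fell in 4 of 26 and rose in 3 (median -0.42), and without Brg1 deficient replicate 4, 8 fell and 3 rose. With all arrays, 8.06% of all genes fell and 12.9% rose. Reg3g, an antibacterial lectin of enterocytes, had 8.62, 9.36 and 11.30 in Apc deficient and 13.53, 13.995, 13.51 and 11.03 in Brg1 deficient arrays. It passed as 9.56-fold lower (adjusted p = 0.00113), although Apc deficient replicate 3 and Brg1 deficient replicate 4, both on slide 2, overlapped, and within slide 2 the difference was -0.97 (adjusted p = 0.634). The cytokine Il18 (-2.57) and the lectin Reg3a (-2.46) fell. Tlr2, a receptor for bacterial lipoproteins, had 8.68, 9.14 and 8.86 in Apc deficient, against 7.05, 6.39, 6.19 and 5.59 in Brg1 deficient arrays (6.02-fold higher, adjusted p = 4.74e-06). Reg3b was near the top of the scale in both groups, with means of 14.49 and 14.98, and did not pass.

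Among unfolded protein response and immediate early genes the shares that passed were near the 20.9% over all genes. Of 25 unfolded protein response genes 2 rose and 3 fell; without Brg1 deficient replicate 4, 1 rose and 5 fell, and with the replicate number as a block 1 rose. Sel1l, of protein degradation at the endoplasmic reticulum, had 8.51, 8.71 and 8.46 in Apc deficient, against 10.03, 9.62, 9.89 and 9.08 in Brg1 deficient arrays (2.14-fold lower, adjusted p = 0.00125). Of 22 immediate early and heat shock genes 4 rose and 1 fell. Egr1, an immediate early transcription factor, had 10.38, 11.03 and 10.43 in Apc deficient, against 8.79, 8.34, 9.03 and 7.88 in Brg1 deficient arrays (4.29-fold higher, adjusted p = 6.44e-05), while Fos averaged 10.06 and 10.10 and did not pass. The mitochondrial chaperones Hspd1 and Hspe1 rose by 1.68 and 1.47. Of 18 clock genes 2 rose and 3 fell, against 12.9% and 8.06% over all genes. Bhlhe40 had 9.34, 9.38 and 9.61 in Apc deficient, against 8.18, 7.61, 7.03 and 7.67 in Brg1 deficient arrays, and Dbp, a clock output factor, had means of 6.34 in Apc deficient, 10.03 in Brg1 deficient, 9.59 in Brg1-Apc deficient and 10.31 in control arrays (difference -3.69, adjusted p = 0.000577). Arntl overlapped (6.72 ± 0.20 SD, n = 3, in Apc deficient and 6.28 ± 0.44 SD, n = 4, in Brg1 deficient arrays). The labels give no hour of collection.

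Keratins and junction proteins went both ways, with 8 of 32 higher and 7 lower (median -0.10). Besides Krt23, the keratins Krt7 and Krt18 rose by 3.07 and 2.44, and the claudins Cldn4 and Cldn2, a pore former of crypts, by 2.41 and 2.08. The villus keratin Krt20 (-1.30), the claudins Cldn23 (-1.95) and Cldn15 (-1.18) and the microvillus adhesion protein Ceacam20 (-3.12) fell. Cdh1, which encodes E-cadherin and is 1 of 12 epithelial identity markers of which 2 rose and 2 fell, averaged 10.84 in Apc deficient and 10.85 in Brg1 deficient arrays. Of 20 genes linked to fetal or regenerating epithelium 6 rose and 1 fell. Anxa3 rose by 1.59, Ly6d by 1.74 and Ccn2, a target of YAP, by 1.53, and the alarmin Il33 fell by 3.13, with means of 6.84 in Apc deficient, 9.96 in Brg1 deficient, 9.41 in Brg1-Apc deficient and 8.20 in control arrays. Anxa1 was near background in both groups.

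Markers of T cells and intraepithelial lymphocytes, cells in which the recombinase is not active and which a scrape can hold, were lower in Apc deficient epithelium. Of 29 measured, 15 fell and 0 rose, with a median of -0.98. The summed level, as the mean log2 value of the 29 members, was 6.31 to 6.73 in Apc deficient, 7.23 to 8.11 in Brg1 deficient, 7.02 to 7.56 in Brg1-Apc deficient and 7.12 to 8.09 in control arrays. Cd3e had 7.19, 6.64 and 6.63 in Apc deficient, against 8.25, 7.98, 8.84 and 9.39 in Brg1 deficient arrays (3.47-fold lower, adjusted p = 0.00236). Itgae, the integrin that binds E-cadherin, fell (-2.41), as did the coreceptor chain Cd8b1 (-2.27) and Cd3d (-1.98). Cd4, Cd8a, Gzmb and Ptprc were near background in both groups. These markers were lower in the same group as the absorptive genes, and their part in that result was not tested.

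Other cell types gave few calls, where over all genes 12.9% rose and 8.06% fell. Many of their probes were near background in both groups, so these counts say little about the cells. That held for 14 of 14 neuron and glia, 7 of 9 mast cell, 5 of 6 red blood cell and 7 of 10 adipocyte markers. It also held for 11 of 19 acinar, 8 of 14 B and plasma cell, 11 of 22 macrophage and dendritic cell and 9 of 20 fibroblast markers. Of 20 fibroblast markers 2 fell (Thy1, -1.99, and Fbln1, -1.15) and 0 rose, and Col1a1 was near background in Apc deficient epithelium. Smooth muscle markers fell in 1 of 12, Mylk (-1.62), and Acta2 varied more among Brg1 deficient arrays (7.62, 10.97, 6.58 and 10.69) than among Apc deficient ones (8.50, 9.03 and 9.17). Endothelial markers rose in 3 of 17: Esam by 2.65, Egfl7 by 2.02 and Prox1, also a Wnt target, by 2.08, while Pecam1, Cdh5 and Kdr were near background. Of 14 B and plasma cell markers 1 rose and 2 fell, and without Brg1 deficient replicate 4 the count lower was 0. Among 22 macrophage and dendritic cell markers Cd14 rose by 0.94 and Laptm5, which lymphocytes express as well, fell by 1.55; with the replicate number as a block 2 fell, and without Brg1 deficient replicate 4, 0 rose and 2 fell. Of 9 mast cell markers 1 rose (Hdc, 1.29). Pancreatic acinar markers gave 1 rise and 1 fall among 19, Rnase1 (2.41) and Spink1 (-2.34), and Cpa1 was near background in both groups. Of 14 neuron and glia markers 1 fell, Prph (-0.60), a call absent with the replicate number as a block and without Brg1 deficient replicate 4. Red blood cell markers gave 0 calls among 6 in limma's fit, with 0 at an unadjusted p under 0.05. Of 10 adipocyte markers 1 rose, Pparg, which is also a gene of intestinal epithelium.

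Set beside the other genotypes, the gene lists took different orders. The level of a list in an array is the mean log2 value of its members. Stem cell markers were at 8.31 to 8.51 in Apc deficient, 5.97 to 6.66 in Brg1 deficient, 7.07 to 7.61 in Brg1-Apc deficient and 6.91 to 7.22 in control arrays, so the Apc deficient arrays lay above and the Brg1 deficient arrays below all 8 others. Wnt targets had the same order, at 7.33 to 7.36 in Apc deficient, 6.05 to 6.33 in Brg1 deficient, 6.73 to 6.93 in Brg1-Apc deficient and 6.50 to 6.61 in control arrays. Replication genes were at 8.91 to 9.11 in Apc deficient, 6.68 to 7.74 in Brg1 deficient, 8.16 to 8.41 in Brg1-Apc deficient and 7.60 to 7.81 in control arrays, with the highest Brg1 deficient array inside the control range. For ribosome biogenesis the levels were 9.42 to 9.68 in Apc deficient, 7.42 to 8.25 in Brg1 deficient, 8.66 to 9.004 in Brg1-Apc deficient and 8.06 to 8.38 in control arrays.

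Digestion genes were at 7.23 to 9.07 in Apc deficient, 9.46 to 10.74 in Brg1 deficient, 9.23 to 10.39 in Brg1-Apc deficient and 10.71 to 11.01 in control arrays. The Apc deficient arrays lay below all others, and 1 of the 4 Brg1 deficient arrays reached the control range. Lipid absorption genes were at 8.51 to 9.45 in Apc deficient, 9.94 to 10.41 in Brg1 deficient, 9.28 to 9.97 in Brg1-Apc deficient and 10.25 to 10.48 in control arrays. Paneth cell genes were at 9.86 to 10.62 in Apc deficient, 8.12 to 9.80 in Brg1 deficient, 8.88 to 9.85 in Brg1-Apc deficient and 8.51 to 10.01 in control arrays, whose range reached above that of the Brg1 deficient arrays. For MHC class II genes the order differed: at 8.51 to 8.88 in Apc deficient and 8.28 to 9.18 in Brg1 deficient arrays they overlapped with each other, and at 9.41 to 9.60 the control arrays lay above both. These levels share arrays between the comparisons and are given as values without a test.

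**Figure D5:**
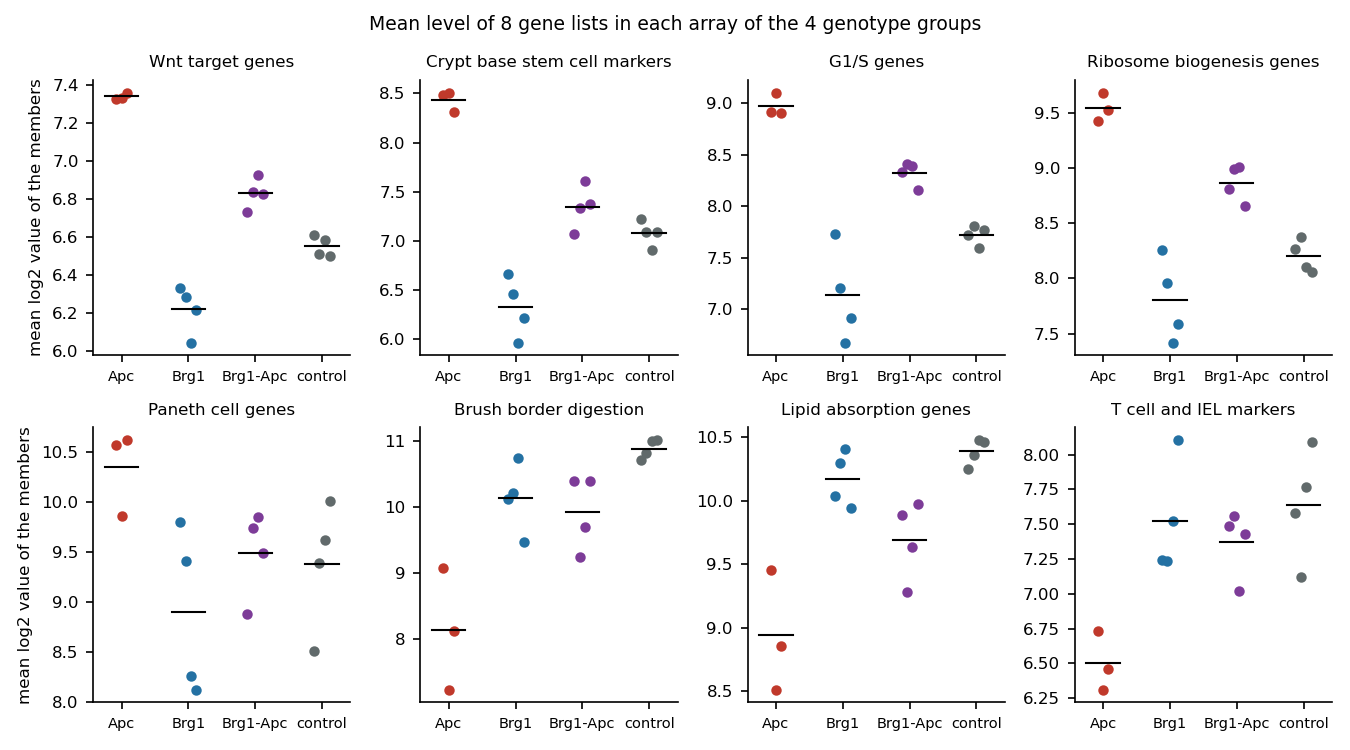
Mean log2 value of the members of 8 gene lists on each array of the Apc deficient, Brg1 deficient, Brg1-Apc deficient and control groups (axes differ between panels and do not start at 0); black bars are group means. Stem cell markers lie at 8.31 to 8.51 in Apc deficient and 5.97 to 6.66 in Brg1 deficient arrays on either side of the other groups, and digestion genes lie lowest in Apc deficient arrays.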

How the data were processed

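Total RNA of 15 scrapes of mouse jejunal epithelium was measured on 1-colour bead arrays. The deposited values were used as log2 intensities, a scale read from the values; whether and how the authors normalized them was not stated in the labels, and no detection p-value was used. The table held 25695 probes and no missing value. Of these, 23976 carried 1 gene symbol in the platform annotation and 1719 stayed unnamed; 4776 genes had more than 1 probe.

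All 15 arrays were fitted in limma 3.58.1 (R 4.3.3) with a mean per genotype, leaving 11 residual degrees of freedom, and the difference is Apc deficient minus Brg1 deficient. P-values were adjusted by Benjamini-Hochberg over all probes, with a threshold of 0.05. The test was tried on simulated data beforehand. Fold changes come from log2 differences, and a level at or below 5.90, the highest array median, counts as near background. Figures were drawn with matplotlib 3.10.9 under Python 3.11.15. The labels do not say that replicates come from separate mice, so p-values measure the spread between these samples.

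Genes named are Smarca4 and Apc, the 10 largest differences in each direction among called genes whose arrays do not overlap, and, of each list, the first measured member as written and (for pathway and cell type lists) the member with the smallest p. Further members are named only where their list is described. Members and lists (51 lists, 1116 of 1273 distinct genes measured) were chosen with earlier results of these data known.

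Deviations of same-numbered arrays from their group means correlated at 0.115, 0.117 and 0.113, and the replicate number served as a block in an alternative fit. The labels do not pair arrays across genotypes. Differently numbered arrays of the same slide correlated more in 2 cases (Apc deficient replicate 3 with Brg1 deficient replicate 4, 0.305, and 2 with 1, 0.266). Arrays of different slides correlated at -0.357 to 0.069, so the correlations followed the slide more than the replicate number. Other alternatives were quantile normalization or median centring, a block for slide, fits to a single slide or to the 7 arrays compared, leaving out each array, weighting the arrays, a robust and trended prior, dropping dim probes, and fitting 1 probe per gene or taking the most variable one.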

Additional observations from a re-analysis of the deposited data

Results flagged for a closer look

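Among the 4 Brg1 deficient arrays, 7 of 158 values tested had 1 array far from the other 3 by Dixon's criterion, which chance gives for about 1 in 20. The group of 3 Apc deficient arrays is too small for it. Of these 7, 4 were on replicate 4, the array with the narrow range of values: Car4 was 9.62 there, against 12.89 to 13.52 on the others. Reg3g was 11.03, against 13.51 to 13.995, Arntl was 5.62, against 6.43 to 6.57, and the mean level of the epithelial defence genes was 7.07, against 7.70 to 7.83. On replicate 3, Aldh4a1 was 13.94, against 12.85 to 13.04, and Eci3 was 10.74, against 10.24 to 10.30. On replicate 1, Acot1 was 8.93, against 7.95 to 8.06.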

How the results depend on the processing

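No call of the 104 named genes changed direction under the 27 alternatives, of which the filter on dim probes left 94 of them. The replicate block gave 4475 probes and changed no call or count by more than 1.5 times beyond those named beside their results. Within slide 1 alone 2924 probes (1795 higher and 1129 lower) and 2080 genes (1282 and 798) passed, and within slide 2 alone, where the lone Apc deficient array is assumed to vary like the other groups, 1555 probes (1148 and 407) and 1178 genes (858 and 320). With only the 7 arrays compared, 1056 probes and 827 genes were lower. Leaving out 1 array at a time gave 1174 (without Apc deficient replicate 2) to 2099 (without Brg1 deficient replicate 4) lower probes. Quantile normalization gave 53.7% of calls as higher and median centring 72.1%, against 62.5%. Smarca4 kept its call throughout (1.59 to 2.18). Mttp did not pass in 17 alternatives, Wnt3 in 16, Lyz1 in 9 and Slc11a2 in 8. Within slide 2 the calls for 19 named genes ended, among them Egr1, Slc2a1, Odc1 and Nr1h4. Isg15 passed without Brg1 deficient replicate 1 (2.97, adjusted p = 0.0403), as did Bmp4 (-1.35, adjusted p = 0.048). Signal near background limits the size of 261 higher and 347 lower differences, and 3 and 4 arrays limit the precision.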
